A study of Labrus bergylta with 77 samples.

Results

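The chitinase and lysozyme genes of ballan wrasse, *Labrus bergylta*, were followed through larval life in whole larvae. They were taken as every row of the deposited expression table named Chia, CHIT1, lys or lyz, letter case ignored. The rule returned 17 of 29932 rows, of which 7 were named Chia, 8 CHIT1 (1 spelled Chit1), 1 lys and 1 LYZ. Each row is called a copy below and carries its LABE identifier. The family was chosen with earlier results on these data known, among them the diet difference of Chia LABE_00058258 at stage BW7. That difference is therefore given as a description without a test.

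Chitinases of the Chia and CHIT1 kind are glycoside hydrolases that cut chitin, the N-acetylglucosamine polymer of arthropod cuticle and therefore of crustacean prey. In mammals, Chia is the acidic chitinase of the stomach and airways, and CHIT1 is chitotriosidase, which activated macrophages secrete. Lysozymes cut the peptidoglycan of bacterial cell walls and are part of innate defence, and in ruminants they also serve as digestive enzymes. Ballan wrasse have no stomach. The names are those of the deposited table, and no activity was measured.

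The 77 libraries were pools of whole larvae, none with a genetic alteration. Plankton larvae came from tanks B5, B7 and B9, which received zooplankton. Control larvae came from tanks B6, B8 and B10, which received rotifers and Artemia. Each tank gave 2 pools at each of 6 fed stages, and 5 pools of unfed larvae at BW0, 4 days post hatch (dph), preceded the diets. Stages were set by standard length. BW2 larvae were 9 dph in both diets. BW3 larvae were 18 dph with plankton and 16 dph with control feed, BW4 larvae 28 and 26 dph, and BW5 larvae 41 and 36 dph. BW6 larvae of both diets were 58 to 59 dph and BW7 larvae 79 to 80 dph, at 26.4 to 27.9 mm with plankton and 26.5 to 27.6 mm with control feed. All tanks received dry feed from 40 dph and nothing else from 56 dph, so BW6 and BW7 compare larvae with different earlier diets on the same feed, and at BW5 dry feed had begun for the plankton larvae but not for the control larvae. The question was how development and first feed are reflected in these genes.

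Values are TPM, an abundance corrected for transcript length that sums to 1000000 in each pool, which the authors deposited, and sequencing depth is unknown. A tank is the replicate, and a tank level is the mean of log2(TPM + 1) over its 2 pools, turned back to TPM. Pools held 14958 to 19641 genes at 1 TPM or more, and their 50 highest genes took 29.2 to 45.7% of the total. Markers of exocrine pancreas, intestine, liver and cartilage were all present, as whole larvae should give, and none of 14 gastric marker names matched a row. In bulk larvae, fewer cells of a type and less RNA per cell cannot be told apart. Pools BW0 R3, BW2 B5 R3 and BW2 B8 R3 correlated better with pools of another stage than with their own group, and 9 pools have titles spaced differently from the rest. Results are given without either set where that ends a call on a chitinase or lysozyme copy. Leaving out the spaced titles keeps only pool R3 at BW0, so that setting cannot decide the steps from BW0 to BW2. BW0 RNA was extracted with TRIzol and the rest with QIAzol, so extraction and stage cannot be told apart between BW0 and BW2. Copies of similar sequence may share reads, and the counting could split them, so levels of single copies are uncertain.

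Of the 17 copies, 11 reached 1 TPM in at least 3 of the 41 tank libraries and BW0 pools and were tested, and 7 reached a mean of 5 TPM in some group. The other 6 were near silent. CHIT1 LABE_00078746 was listed at 0 in all 77 pools, and CHIT1 LABE_00065864, Chit1 LABE_00074773, CHIT1 LABE_00078745, Chia LABE_00078888 and Chia LABE_00087959 never exceeded 1.03 TPM in a pool. Nearly all of the signal came from 4 copies, namely Chia LABE_00056099, LABE_00056104 and LABE_00058258, and lys LABE_00028385.

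The summed level of the family was 3359 TPM in plankton and 3389.5 TPM in control larvae at BW7, against 718 TPM at BW0 (sums of group means). Its makeup shifted from chitinase towards lysozyme. Chia copies made up 52.3% of the sum in plankton and 58.1% in control larvae at BW7, against 97.3% at BW0. The lys copy made up 47.5% in plankton and 41.6% in control larvae at BW7, against 0.378% at BW0. The 8 CHIT1 copies together never exceeded 19.7 TPM in a group mean, reached in plankton larvae at BW5.

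**Figure D1:**
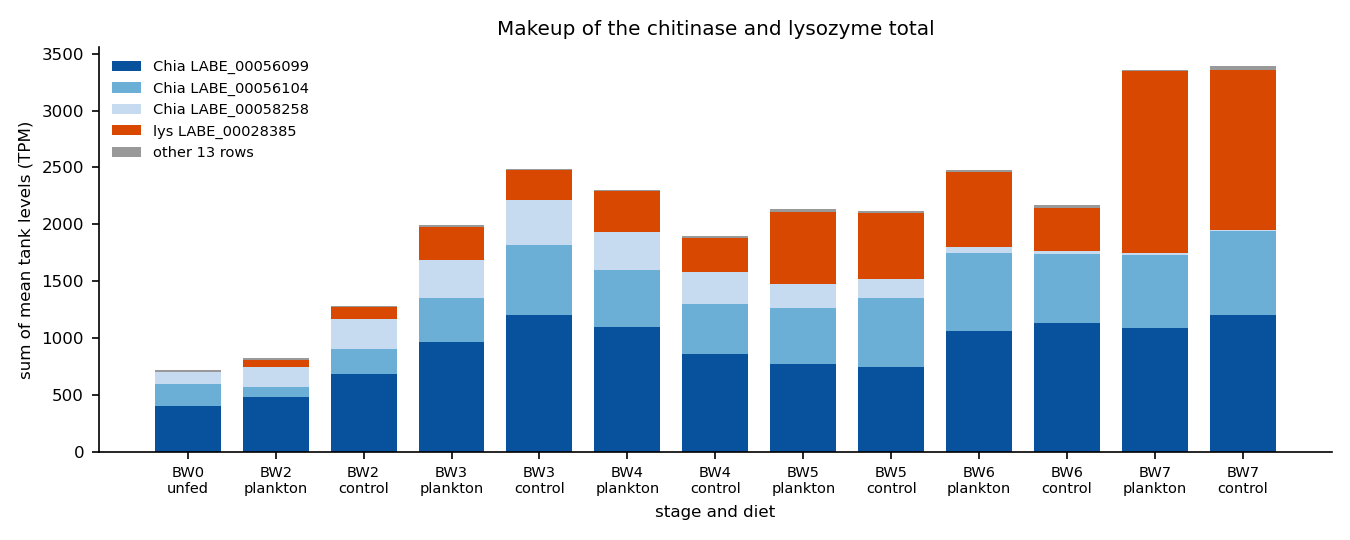
Sum of the mean tank levels (TPM, vertical axis) of the chitinase and lysozyme copies in each stage and diet group (horizontal axis), split into the 3 high Chia copies, lys and the other 13 copies. The lys part is 47.5% of the bar in plankton and 41.6% in control larvae at BW7, against 0.378% at BW0.

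The limma fit across 22028 rows tested each stage against the one before it, with both diets weighted equally. From BW0 to BW2, 3 of the 11 tested copies rose, against 3.8% of all rows, and 1 fell, against 59.4% of all rows. From BW2 to BW3, 4 copies rose and none fell, against 63.3% and 5.45% of all rows. From BW3 to BW4, 1 copy rose and none fell, against 6.26% and 22.8%. From BW4 to BW5, 6 copies rose and 1 fell, against 10.6% and 39.1%. From BW5 to BW6, 2 copies rose and 3 fell, against 18.1% and 24.4%. From BW6 to BW7, 2 copies rose and 6 fell, against 11.6% and 25.4%. Of the 6 that rose from BW4 to BW5, 4 low copies had reached 1 TPM in no earlier tank. Of the 2 that rose from BW6 to BW7, 1 was tested only because of its BW7 tanks. Copies grouped below by a highest level at BW5 or BW6 are among those that rose to BW4 or BW5 and fell later. Their steps are descriptions. The median of all rows moved by -0.37 on the log2 scale from BW0 to BW2 and by 0.42 from BW2 to BW3. Size factors removed these shifts, and their values are given wherever they end a call on a chitinase or lysozyme copy. Calls on the gene and marker lists were not checked under size factors or any other alternative. All adjusted p-values are from limma with Benjamini-Hochberg adjustment over all rows, each ± is a standard deviation (SD) beside a level and a standard error beside a log2 difference, and differences are on the log2(TPM + 1) scale, which understates the change of low copies.

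Chia LABE_00056099 was the most abundant chitinase at every stage. It was already at 404 ± 50.5 TPM in unfed larvae (n = 5 pools), rank 305 of all rows. The stage means were 584, 1085, 975, 756, 1095 and 1148 TPM from BW2 to BW7 (n = 6 tanks each). The lowest of these means was thus that of unfed larvae and the highest that of BW7.

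The rise of LABE_00056099 from BW2 to BW3 was 0.89 ± 0.16 (log2, adjusted p = 1.36e-05), but 0.31 under size factors (adjusted p = 0.117). The 6 tanks at BW3 had a lowest, median and highest level of 607, 1145 and 1424 TPM, and at BW2 of 334, 582 and 743 TPM. The ranges overlapped only through tank B9 of the plankton diet, whose BW3 pools are described below. A rise of 0.49 ± 0.17 from BW0 to BW2 passed the test (adjusted p = 0.0114) and was lost without the 3 pools nearer to another stage (adjusted p = 0.0624). It was also lost without the 9 pools with a spaced title, but only pool R3 then remained at BW0, so that setting cannot decide it. From BW5 to BW6 it rose by 0.50 ± 0.16 (adjusted p = 0.0119), a call lost without tank B6 or tank B8 (highest adjusted p 0.0812).

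Chia LABE_00056104 ran at a lower level with a sharper start. Its 5 unfed pools held 80.5, 215, 203, 193 and 269.6 TPM. Stage means were 155, 499, 474, 552, 646 and 685 TPM from BW2 to BW7. The copy rose by 1.79 ± 0.22 from BW2 to BW3 (adjusted p = 4.66e-08), or 3.46-fold, and by 1.21 under size factors. No later step passed the test, and under size factors the one from BW4 to BW5 did (0.52, adjusted p = 0.0297). The step from BW0 to BW2 did not pass (-0.40, adjusted p = 0.124), but it did without BW0 pool R3 (-0.69, adjusted p = 0.00269), the lowest of the unfed pools, and its sign turned under size factors (0.11, adjusted p = 0.689).

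Chia LABE_00058258 was high in early larvae and low at the end. Its stage means were 102, 218, 364, 304, 185, 41.6 and 15 TPM from BW0 to BW7. Tanks at BW7 ran from 4.58 to 24.5 TPM, against 241 to 414 TPM at BW3. All tanks at BW7 lay below all tanks of every earlier stage, the lowest of which had 26.0 TPM at BW6.

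The rise of LABE_00058258 was 1.07 ± 0.19 from BW0 to BW2 (adjusted p = 2.77e-05) and 0.76 ± 0.18 from BW2 to BW3 (adjusted p = 0.000519), the second only 0.18 under size factors (adjusted p = 0.438). Without the pools with a spaced title the first was lost, but only pool R3 then remained at BW0, so that setting cannot decide it. The copy then fell by 0.77 ± 0.18 from BW4 to BW5 (adjusted p = 0.000869), a call that size factors ended (-0.48, adjusted p = 0.0548). The large falls came after that. LABE_00058258 fell by 2.12 ± 0.18 from BW5 to BW6 (adjusted p = 9.85e-11) and by 1.61 ± 0.18 from BW6 to BW7 (adjusted p = 4.42e-08), and both calls held under all 16 alternatives.

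**Figure D2:**
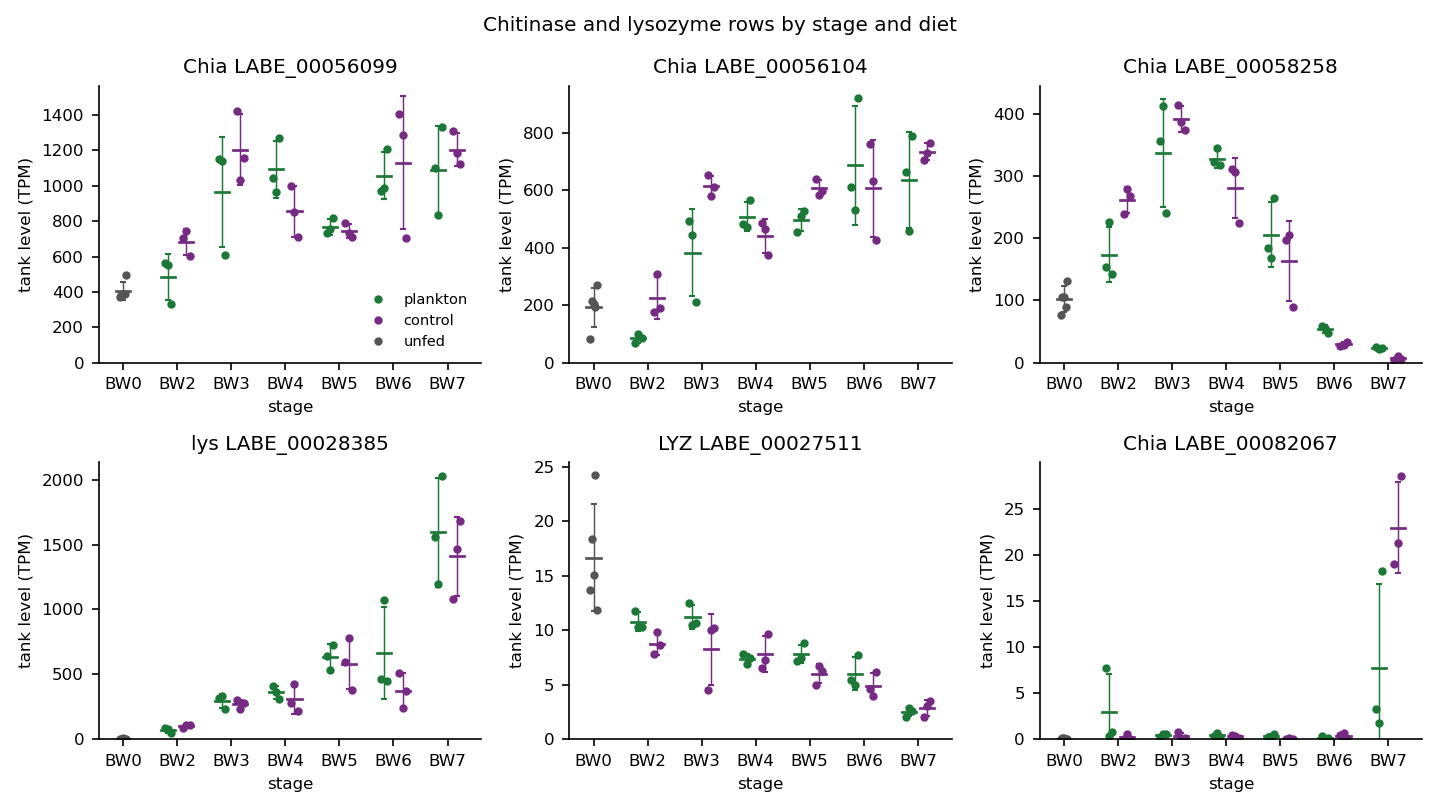
Tank levels (TPM, vertical axes, each panel with its own scale) of 6 copies by stage (horizontal axes), with plankton left of control at each stage and the 5 unfed BW0 pools in grey. Points are tanks or BW0 pools, bars are the mean with its SD, cut at 0. Chia LABE_00058258 ends at 15 TPM on average at BW7 while lys LABE_00028385 ends at 1502.5 TPM.

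The ratio of copies within a library does not depend on the scaling of that library. LABE_00058258 stood at 0.25 ± 0.0313 of LABE_00056099 in unfed larvae. At BW3 the ratio was 0.356 in plankton and 0.329 in control larvae, at BW5 0.266 and 0.219, at BW6 0.052 and 0.0294, and at BW7 0.0218 and 0.00575. The fall of LABE_00058258 thus also stood against a Chia copy measured in the same pools.

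The ratio of LABE_00056104 to LABE_00056099 was 0.188 ± 0.0702 in plankton and 0.326 ± 0.0832 in control larvae at BW2. At BW3 it was 0.39 and 0.516, and at BW5 0.647 and 0.817, and at both stages the tanks of the diets did not overlap. A 2-sided exact permutation test gave p = 0.1 at BW3 and at BW5, which is the smallest that 3 against 3 tanks allow, and 0.3 after adjustment over the 6 stages, so no difference in this ratio could pass the threshold.

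**Figure D3:**
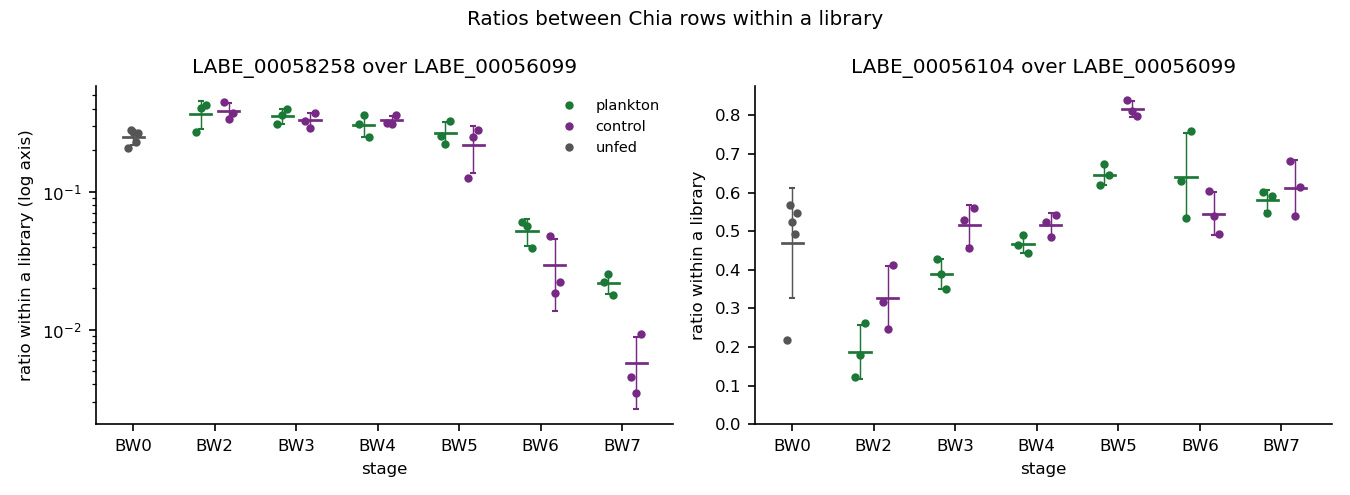
Ratio of Chia LABE_00058258 (left, log axis) and Chia LABE_00056104 (right, linear axis) to Chia LABE_00056099 within each library, by stage (horizontal axes), plankton left of control. Points are tanks or unfed BW0 pools, bars are the mean with its SD. The left ratio is 0.0218 in plankton and 0.00575 in control larvae at BW7, against 0.25 at BW0.

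A further set of chitinase copies is made up of the 5 tested ones with their highest stage mean at BW5 or BW6. CHIT1 LABE_00071115 was the highest, with stage means of 0.217, 0.31, 0.594, 2.33, 11.7, 9.06 and 2.48 TPM from BW0 to BW7. Its tanks at BW5 held 14.1, 16.6 and 7.47 TPM with plankton and 11, 8.05 and 12.9 TPM with control feed, above every BW4 tank, the highest of which had 2.99 TPM. It rose by 1.06 ± 0.17 from BW3 to BW4 (adjusted p = 1.74e-05) and by 1.89 ± 0.17 from BW4 to BW5 (adjusted p = 1.74e-10), and fell by 1.51 ± 0.17 from BW6 to BW7 (adjusted p = 2.8e-08). These steps are descriptions, since the copy was grouped by its stage of highest level.

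The other 4 of the set were Chia LABE_00070761 and CHIT1 LABE_00070763, LABE_00084151 and LABE_00092194. Each rose from BW4 to BW5, by 0.71 to 1.43 (adjusted p at most 3.07e-05). This is a description, since the 4 were grouped by their stage of highest level. They reached 1 TPM in no tank before BW5, so they entered the test only through BW5 and later stages. Their stage means were 0.9 to 2.58 TPM at BW5 and at most 0.459 TPM at BW4. They differed in what came next. LABE_00070763 rose again by 0.56 ± 0.13 at BW6 (adjusted p = 0.000686), when LABE_00070761 fell by 0.47 ± 0.13 (adjusted p = 0.00308) and LABE_00092194 fell by 0.58 ± 0.16 (adjusted p = 0.00329), both falls being lost without tank B10 or with the 2 stages fitted alone (adjusted p at most 0.0779). The diets moved unequally at this step, which was not tested. At BW5 and BW6, LABE_00070763 averaged 0.96 and 0.963 TPM in plankton larvae, and 0.839 and 2.79 TPM in control larvae. LABE_00070761 averaged 3.26 and 1.3 TPM in plankton larvae, and 1.82 and 1.72 TPM in control larvae. For LABE_00092194 the values were 2.65 and 0.641 TPM, and 1.35 and 1.23 TPM. By BW7, LABE_00084151 fell by 1.0 ± 0.17 (adjusted p = 1.74e-05), and LABE_00070761 and LABE_00092194 fell by 0.49 and 0.53 (adjusted p = 0.0026 and 0.00785), calls lost without tank B8 (adjusted p = 0.05 and 0.0541) and, for the second, without tank B7 (adjusted p = 0.0533). Only LABE_00070763 of the 5 did not pass the test at that step (-0.14, adjusted p = 0.407). The steps of these copies to BW6 and BW7 are descriptions too, since the grouping used their stage of highest level.

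Across the 41 libraries the 5 copies correlated with each other at r from 0.639 to 0.959, with a median of 0.861, as a description only, since they were grouped by their stage of highest level and the libraries share stages. Marker lists moved at the same steps. From BW4 to BW5, 8 of 12 goblet and mucous cell markers rose and 3 fell, 14 of 30 macrophage and osteoclast markers rose and 2 fell, 12 of 15 liver markers rose, and 14 of 20 exocrine pancreas markers rose and 2 fell, where 10.6% of all rows rose and 39.1% fell. At the same step 9 of 12 cartilage markers fell and 2 rose, and 26 of 66 intestinal markers fell and 3 rose. From BW5 to BW6, 20 of 30 macrophage and osteoclast markers rose and 1 fell, all 14 granulocyte markers rose, 7 of 12 goblet and mucous cell markers rose and 1 fell, and 14 of 20 exocrine pancreas markers fell and 4 rose, where 18.1% of all rows rose and 24.4% fell. The summed level of the macrophage and osteoclast list was 459 to 489 TPM in plankton and 401 to 495 TPM in control larvae at BW7, and 382 to 438 TPM in plankton and 425 to 511 TPM in control larvae at BW6. Of this sum, Ctsk LABE_00057887 alone gave 124.9 ± 14.4 TPM at BW7 and 94.1 ± 11.7 TPM at BW6. At the step from BW6 to BW7, at which CHIT1 LABE_00071115 fell, 5 of the 30 macrophage and osteoclast markers rose and 3 fell, against 11.6% and 25.4% of all rows. At this step 15 of 20 exocrine pancreas, 7 of 12 cartilage and 4 of 12 goblet and mucous cell markers rose and none fell. Of the others, 4 of 15 liver markers rose and 1 fell, 10 of 66 intestinal markers rose and 11 fell, and 2 of 14 granulocyte markers fell. The part of these cells in the chitinase levels was not tested.

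**Figure D4:**
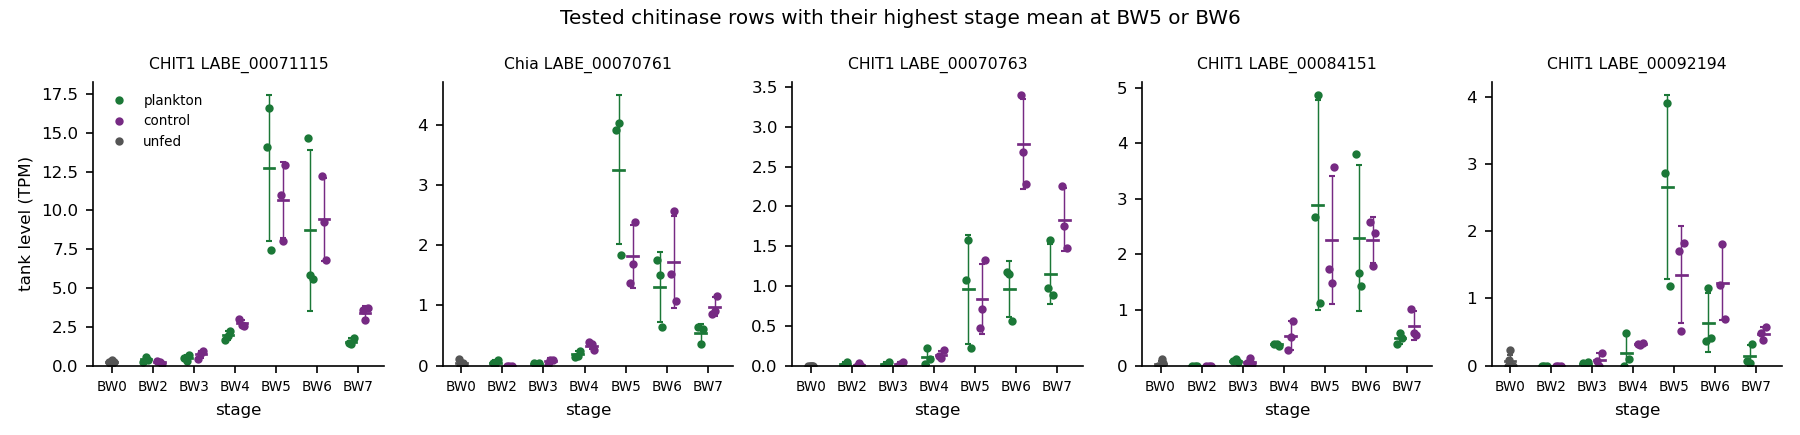
Tank levels (TPM, vertical axes, each panel with its own scale) of the 5 tested chitinase copies with their highest stage mean at BW5 or BW6, by stage (horizontal axes), plankton left of control. Points are tanks or unfed BW0 pools, bars are the mean with its SD. CHIT1 LABE_00071115 averages 2.48 TPM at BW7, against 11.7 TPM at BW5.

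Chia LABE_00082067 rose at the last step. It averaged 15.3 ± 10.6 TPM at BW7 and 0.244 ± 0.258 TPM at BW6 (n = 6 tanks each). The step was 3.29 ± 0.33 (log2, adjusted p = 4.82e-09) and held under all 16 alternatives. The copy reached 1 TPM in 7 of the 41 libraries, all at BW7 except tank B5 of BW2. It thus entered the test only through BW7, and the step is given as a description. Every tank at BW7, the lowest at 1.72 TPM, lay above every tank at BW6, the highest at 0.615 TPM.

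Within BW7 the copy was uneven between pools. Plankton pools held 17.2 and 0 TPM in tank B5, 0.000119 and 6.4 TPM in B7, and 9.91 and 32.7 TPM in B9. Control pools held 24.6 and 14.7 TPM in B6, 15.7 and 28.7 TPM in B8, and 28.6 and 28.4 TPM in B10. The control pools of BW7 therefore all carried the transcript, and the plankton pools ranged from none to more than any control pool. Over all stages the copy was above 0 in 49 of 77 pools, and the highest value of all was in an early one, BW2 B5 R1, with 57.6 TPM against 0 to 1.95 TPM in the other plankton pools of BW2. That pool was also the lowest of its group for LABE_00056104, at 11.8 TPM. The diet difference of LABE_00082067 at BW2 was 1.20 ± 0.47 (adjusted p = 0.0522) and passed under size factors (1.40, adjusted p = 0.0271). Plankton tanks of BW2 had a lowest, median and highest level of 0.296, 0.716 and 7.69 TPM, the highest through pool B5 R1. Control tanks reached at most 0.581 TPM.

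The lysozyme copy lys LABE_00028385 climbed through nearly all of larval life. It stood at 2.71 ± 1.52 TPM in unfed larvae (n = 5 pools), rank 15610 of all rows. Stage means were 84.2, 282, 335, 608, 519 and 1502.5 TPM from BW2 to BW7 (n = 6 tanks each). At BW7 it ranked 103 in plankton and 113 in control larvae, among the most abundant transcripts of the larva.

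The first step of lys was the largest, 4.57 ± 0.26 from BW0 to BW2 (adjusted p = 3.78e-14), or 23.7-fold. It then rose by 1.78 ± 0.25 from BW2 to BW3 (adjusted p = 3.81e-07), by 0.86 ± 0.25 from BW4 to BW5 (adjusted p = 0.00469) and by 1.65 ± 0.25 from BW6 to BW7 (adjusted p = 3.81e-06). These 4 calls held under every alternative, size factors included. The steps from BW3 to BW4 (0.22, adjusted p = 0.555) and from BW5 to BW6 (-0.35, adjusted p = 0.27) did not pass the test. At BW6 the tanks were wide apart, at 467, 1073 and 450.0 TPM in plankton larvae and 512.5, 239.6 and 371 TPM in control larvae. At BW7 they were 1560.0, 1194 and 2032 TPM in plankton larvae and 1082, 1468 and 1679.5 TPM in control larvae.

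The second lysozyme copy went the other way. LYZ LABE_00027511 had stage means of 16.7, 9.77, 9.74, 7.6, 6.91, 5.46 and 2.68 TPM from BW0 to BW7. The 5 unfed pools held 13.7, 18.4, 15.1, 24.3 and 11.9 TPM, all above every tank of BW4 and later. The fall of 0.69 ± 0.16 from BW0 to BW2 (adjusted p = 0.000641) was -0.21 under size factors (adjusted p = 0.301). It was -0.61 without the pools with a spaced title, which left only pool R3 at BW0. The fall of 0.80 ± 0.16 from BW6 to BW7 (adjusted p = 0.000135) held under all 16 alternatives. At BW7, lys averaged 1595 TPM and LYZ 2.51 TPM in plankton larvae, and 1409.7 and 2.85 TPM in control larvae.

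The diets were compared at each fed stage, plankton minus control. At BW2, 1 of the 11 tested copies passed the test, against 29.1% of all rows, and it was Chia LABE_00056104. Plankton tanks held 68.5, 99.8 and 87.3 TPM, and control tanks 175, 307 and 190.5 TPM. At these levels, averaged on the log scale, the tanks did not overlap, and the difference was -1.36 ± 0.31 (adjusted p = 0.00106).

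The pools behind these tanks were less tidy. Plankton pools held 11.8 and 377 TPM in B5, 127 and 78.3 TPM in B7, and 92.0 and 82.7 TPM in B9. Control pools held 165 and 185 TPM in B6, 289 and 327 TPM in B8, and 135 and 269 TPM in B10. The B5 pool with 377 TPM, R3, was above all control pools and is one of those nearer to another stage. Averaging TPM before the log, an alternative chosen after these pools were seen, gave -0.87 (adjusted p = 0.0299), and leaving out the pools nearer to another stage gave -2.14 (adjusted p = 0.000139). With TPM averaged first, tank B5 lay above control tank B6, so the tanks of the diets then overlapped. In the second setting only the pool with 11.8 TPM stood for tank B5. The call held under all 16 alternatives, without tank B8 at -1.11 (adjusted p = 0.0366).

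No other copy passed the test at BW2. LABE_00056099 differed by -0.53 ± 0.23 (adjusted p = 0.0751) and LABE_00058258 by -0.61 ± 0.26 (adjusted p = 0.0739), and both passed without the pools nearer to another stage (-0.66 and -0.97, adjusted p = 0.017 and 0.0103). Under size factors both differences shrank, to -0.32 and -0.41 (limma, adjusted p = 0.317 and 0.269). In all, 6 of 11 copies had tanks that did not overlap between diets at BW2, against 35.8% of all rows. Of the 6, LYZ LABE_00027511 (10.8 TPM in plankton and 8.76 TPM in control larvae) and Chia LABE_00070761 (0.0476 and 0 TPM) were higher with plankton. From BW3 to BW6 the counts were 2, 3, 3 and 2 of 11, against 11.8%, 30.2%, 14.3% and 12.7% of all rows. Intestinal markers summed to 2312 to 3317 TPM in plankton and 4423 to 5217 TPM in control larvae. Of these 66 markers, 11 were lower and 3 higher, where 29.1% of all rows passed in either direction. The abundant FABP2 LABE_00036062 alone averaged 268 TPM in plankton and 1013 TPM in control larvae. Lower with plankton were also 9 of 15 liver and 8 of 12 cartilage markers. The part of these markers in the difference of LABE_00056104 was not tested.

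At BW3, BW4 and BW5 none of the 11 copies passed the test with limma, against 0.281%, 0.667% and 0.3% of all rows. At an unadjusted p under 0.05 there were 2 at BW3, none at BW4 and 2 at BW5, against 1368, 1490 and 1091 of all 22028 rows. Those were LYZ LABE_00027511 (0.47 ± 0.22, adjusted p = 0.761) and Chia LABE_00056104 (-0.77 ± 0.31, adjusted p = 0.619) at BW3, and Chia LABE_00070761 (0.57 ± 0.18, adjusted p = 0.351) and CHIT1 LABE_00092194 (0.61 ± 0.22, adjusted p = 0.567) at BW5. The last pair passed without tank B9 (0.84 and 0.94, adjusted p = 0.00395 and 0.0341). Ages differed between diets at these stages, and diet and age cannot be told apart there.

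Pools B9 R2 of BW3 and B10 R2 of BW4 stood apart for all 3 high Chia copies. In B9 R2 the levels of LABE_00056099, LABE_00056104 and LABE_00058258 were 307, 79.8 and 167 TPM, while the other 5 plankton pools of BW3 ran from 1109 to 1197, from 418 to 564 and from 349 to 420.1 TPM. The same pool had 683 TPM of exocrine pancreas markers against 4260.3 to 4807 TPM, and 3542 TPM of intestinal markers against 4648 to 5725 TPM. It was also lowest for liver markers (565.5 against 968.3 to 1183.3 TPM), antimicrobial genes (107.1 against 187.4 to 277.6 TPM) and lys (213.3 against 254.6 to 345.0 TPM). Chitin and N-acetylglucosamine enzymes were narrowly lowest (479.9 against 483.3 to 580.3 TPM), and macrophage and osteoclast, granulocyte, goblet and cartilage markers lay within the range of the others. In B10 R2 the 3 copies were at 580.0, 295 and 185 TPM, below the other control pools of BW4 at 853 to 1049, 437 to 508 and 274 to 316 TPM. The pool held 4580.2 TPM of intestinal markers against 6009 to 6902 TPM, and 733.4 TPM of liver markers against 969.5 to 1168.2 TPM. Its lys level was 133.8 TPM against 271.8 to 535.3 TPM. Its exocrine pancreas markers, at 2500.4 TPM, lay within the range of the others (2426.9 to 3611.8 TPM), and its macrophage and osteoclast markers lay above theirs (295.0 against 215.9 to 277.2 TPM). Without both pools the differences at BW3 and BW4 still passed for none of the copies.

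**Figure D5:**
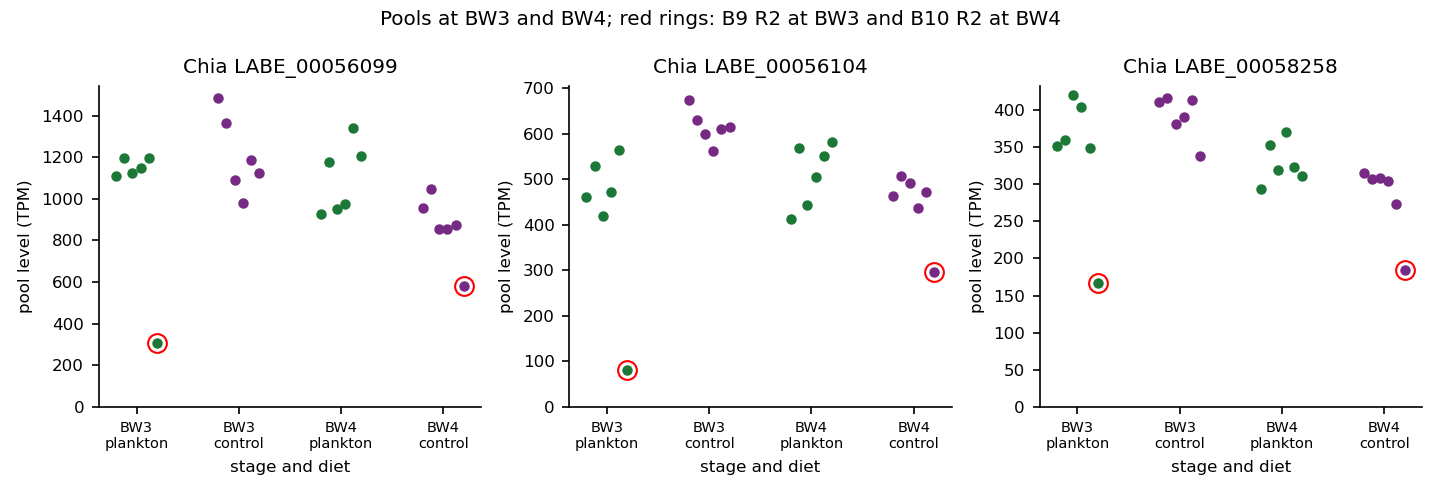
Level (TPM, vertical axes) of the 3 high Chia copies in each pool at BW3 and BW4, by stage and diet (horizontal axes), plankton left of control within a stage. The ringed pools, B9 R2 of BW3 and B10 R2 of BW4, lie below every other pool of their group in all 3 panels, at 307 and 580.0 TPM for LABE_00056099.

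After the change to dry feed, limma gave 3 of the 11 copies an unadjusted p under 0.05 at BW6, against 1808 of all 22028 rows. At BW7 there were 5, against 838 of all rows, a count that includes the difference of LABE_00058258 known beforehand. At BW6, 1 copy of the 11 passed, against 0.804% of all rows, and it was the low copy CHIT1 LABE_00070763. Plankton tanks held 1.18, 1.15 and 0.559 TPM and control tanks 3.4, 2.69 and 2.28 TPM, without overlap. The difference was -0.95 ± 0.18 (adjusted p = 0.00309). It was lost with a pseudocount of 0.1, with BW6 fitted alone (the highest adjusted p over the alternatives was 0.244), without tank B6 and without tank B8, and it rests on levels near the filter. At this stage 14 of 20 exocrine pancreas markers were higher with plankton, at summed levels of 3553 to 6898 TPM against 1254 to 1475 TPM in control larvae, and the part of this in the CHIT1 difference was not tested.

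Chia LABE_00058258 at BW6 had 58.9, 55.9 and 47.0 TPM in plankton tanks and 26.0, 28.6 and 33.4 TPM in control tanks. The tanks did not overlap, but the difference of 0.86 ± 0.26 did not pass the test over all rows (adjusted p = 0.146). For lys the difference at BW6 was 0.77 ± 0.35 (adjusted p = 0.533). At BW7 LABE_00058258 had 24.5, 21.2 and 23.9 TPM in plankton tanks and 4.58, 11 and 5.05 TPM in control tanks, a difference of 1.71 on the log2 scale. The family was proposed with that value known, so nothing is read from it, and for the count alone, 1 of 11 copies and 0.0863% of all rows were past the threshold at BW7. The differences of LABE_00058258 from BW2 to BW7 were -0.61, -0.25, 0.24, 0.39, 0.86 and 1.71. The mean of the last pair exceeded that of the first 4 by 1.34, a value that includes BW7 and gets no test here. That contrast put 0.159% of all rows past the threshold. CHIT1 LABE_00070763 came near that threshold without passing it (-0.68 ± 0.16, adjusted p = 0.0526). This copy averaged at most 0.138 TPM in either diet from BW2 to BW4, where a diet difference can hardly show on the log2(TPM + 1) scale. The contrast therefore cannot show that its diet difference changed.

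For the rest of the family at BW7 the values are given side by side. LABE_00082067 had 3.27, 1.72 and 18.2 TPM in plankton tanks and 19.0, 21.3 and 28.5 TPM in control tanks (-1.96 ± 0.47). CHIT1 LABE_00071115 had 1.43, 1.4 and 1.79 TPM in plankton tanks and 3.6, 2.95 and 3.71 TPM in control tanks (-0.80 ± 0.24). Neither group of tanks overlapped with the other for these copies, which was so for 5 of 11 copies and 13.7% of all rows. That count includes LABE_00058258, whose difference was known when the family was proposed, so nothing is read from it. The abundant copies were close together, with differences of -0.17 ± 0.23 for LABE_00056099, -0.24 ± 0.31 for LABE_00056104 and 0.17 ± 0.35 for lys. No marker list had more than 1 member past the threshold at BW7.

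The related enzymes of chitin and N-acetylglucosamine handling moved mostly at the early steps, at which most of all rows moved in the same directions. Of 26 tested genes of that list, 22 fell and 1 rose from BW0 to BW2, against 59.4% and 3.8% of all rows (median -0.53 against -0.37 for all rows). From BW2 to BW3, 24 rose and none fell, against 63.3% and 5.45% of all rows (median 0.74 against 0.42). Among the risers was the chitin synthase CHS1 LABE_00000099, at 16.1 ± 3.25 TPM at BW3 and 3.19 ± 0.642 TPM at BW2 (2.02 ± 0.19, adjusted p = 9.64e-10). From BW4 to BW5, 2 rose and 8 fell, against 10.6% and 39.1% of all rows. The lysosomal CTBS LABE_00044822, di-N-acetylchitobiase, was one of the risers, at 11.7 ± 0.897 TPM at BW5 and 8.44 ± 0.977 TPM at BW4 (adjusted p = 5.58e-05). By diet, 3 of the 26 were higher and 4 lower in plankton larvae at BW2, against 29.1% of all rows in either direction. From BW3 to BW7 limma called none, against 0.281, 0.667, 0.3, 0.804 and 0.0863% of all rows. At these stages 0, 1, 1, 1 and 0 had an unadjusted p under 0.05, against 1368, 1490, 1091, 1808 and 838 of all 22028 rows. Of the BW2 calls, chid1 LABE_00011534, a chitinase-domain protein, averaged 3.48 ± 1.24 TPM in plankton larvae, against 8.97 ± 2.44 TPM in control larvae, a difference of -1.16 ± 0.18 (adjusted p = 1.02e-05).

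Among 10 antimicrobial genes, 7 rose and 1 fell from BW4 to BW5, against 10.6% and 39.1% of all rows (median 1.10 against -0.22 for all rows). Pglyrp2 LABE_00074936, a peptidoglycan recognition protein, was at 14.1 ± 4.48 TPM at BW5 and 2.87 ± 1.69 TPM at BW4 (2.01 ± 0.20, adjusted p = 1.77e-09). At the step from BW6 to BW7, at which lys rose, 4 of the 10 rose and 4 fell, against 11.6% and 25.4% of all rows. LEAP2 LABE_00055895, a liver-expressed antimicrobial peptide, stood at 46.8 ± 7.81 TPM at BW7 and 11 ± 4.08 TPM at BW6 (2.04 ± 0.28, adjusted p = 8.03e-07), while hamp1 LABE_00015416, the iron hormone hepcidin, stood at 10.0 ± 3.45 TPM and 84.5 ± 28.2 TPM (-2.95 ± 0.16, adjusted p = 2.8e-14).

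Goose-type lysozymes are a separate lysozyme family, with 14 rows named Lysozyme g that were picked after the names in the table were seen. As a sum they peaked earlier than lys. Their sum was 15.8 ± 5.69 TPM at BW0 and highest at BW5, at 153 ± 20.7 TPM in plankton and 124 ± 78.5 TPM in control larvae, and it was 36.3 ± 8.02 and 34.8 ± 3.41 TPM at BW7. Of 10 tested rows, 6 rose from BW4 to BW5, against 10.6% of all rows, and 7 fell from BW5 to BW6, against 24.4% (median -1.08 against -0.08 for all rows). The highest, LABE_00074663, was at 13 ± 7.2 TPM at BW6 and 64.2 ± 24.5 TPM at BW5 (-2.31 ± 0.30, adjusted p = 2.79e-07). At BW5 it gave 73.1 TPM of the sum in plankton and 55.3 TPM in control larvae. Not all rows followed the sum. LABE_00068073 was highest at BW7, at 1.89 ± 0.808 TPM in plankton and 1.34 ± 1.32 TPM in control larvae. LABE_00074938 averaged 3.98 TPM at BW5 and 7.04 TPM at BW7 in control larvae, but 7.55 and 4.34 TPM in plankton larvae. None of the 10 tested rows passed the limma test by diet, against 29.1, 0.281, 0.667, 0.3, 0.804 and 0.0863% of all rows from BW2 to BW7. At these stages 0, 1, 3, 1, 0 and 2 had an unadjusted p under 0.05. Of all 22028 rows, 8611, 1368, 1490, 1091, 1808 and 838 did.

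The named genes whose levels ran most like each copy over the 41 libraries were found by Pearson correlation, as a description. For lys they were APOH (r = 0.948), hpx (0.936) and SLC25A4 (0.916), that is apolipoprotein H, the haem-binding plasma protein hemopexin and a mitochondrial ADP/ATP carrier. For Chia LABE_00058258 they were MGARP (0.939), a Type-4 ice-structuring protein LS-12 (LABE_00037098, 0.935) and the haemoglobin gene hbb2 (0.919). For Chia LABE_00056099 another copy of Type-4 ice-structuring protein LS-12 (LABE_00017890, 0.887), the sodium/hydrogen exchanger Slc9a3 (0.844) and Ladderlectin (0.83) came first. The closest to Chia LABE_00056104 were FADD (0.916), CCL25 (0.913), a chemokine, and Galnt7 (0.912), and to CHIT1 LABE_00071115 Sbk2 (0.948), the haem oxygenase gene hmox (0.94) and CKMT1 (0.939). For LYZ they were PDXP, TFB2M and Iscu (0.906 to 0.909), all highest in unfed larvae. For Chia LABE_00082067 the nearest, SDR42E2, Natterin-3 and GM2 (0.809 to 0.849), averaged under 1 TPM over the libraries, and only 2 of the 21 genes were also named by Spearman correlation.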

How the data were processed

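RNA from 77 pools of whole ballan wrasse larvae was sequenced after poly(A) selection, per the labels' protocols. The authors deposited 1 table of TPM per gene, in which each pool sums to 1000000, so counts and depth are unknown. Salmon and edgeR are named in the submitters' processing notes without versions or roles, and the genome build is not given in the sources used here.

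The 2 pools of a tank were averaged as log2(TPM + 1), giving 36 tank libraries and 5 BW0 pools in 13 groups. A row was kept when 3 or more of the 41 libraries reached 1 TPM (22028 of 29932). limma 3.58.1 (R 4.3.3) with an intensity trend was fitted once over all groups (28 residual degrees of freedom), and calls are Benjamini-Hochberg adjusted p-values under 0.05 over all rows of a contrast. Contrasts were diet at each fed stage, each stage step, and a feeding period contrast, in which the mean diet effect of the first 4 fed stages is taken from that of the last 2. Labels name tanks but no separate spawnings, so p-values measure the spread between tanks. At BW0 no tank is named, and the 5 single pools stand beside means of 2 pools. For BW0 the spread is therefore that between pools. Scripts were tested on simulated data. Ratios were tested by exact permutation. Python 3.11.15 made the descriptions.

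The members and gene lists were chosen with earlier results of these data known. Full values are given for copies with a group mean of at least 5 TPM, the other copies are given by range, count and call, and for each full copy the 3 most correlated named genes are listed. From the gene lists, the named genes are among the up to 2 in each direction with the smallest p in a contrast. Lists covered chitin and N-acetylglucosamine enzymes, goose-type lysozymes (0 of 11 names matched), antimicrobial proteins, and markers of macrophages and osteoclasts, granulocytes, exocrine pancreas, intestine, stomach (0 of 14 names matched), goblet cells, liver and cartilage. Alternatives were another pseudocount, no filter, size factors, pools as replicates, single-stage fits, pools left out, tanks as a block and each tank or BW0 pool left out. They were read for the chitinase and lysozyme copies only, not for the gene lists. No LABE identifier matched the RefSeq gene table, so positions and sequences are not used here.

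The same tank was sampled at every stage. Deviations of a tank from its group mean correlated between successive stages at r from -0.0805 to 0.3 (median 0.018, 30 pairs), and a fit with tank as a block is among the alternatives.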

Additional observations from a re-analysis of the deposited data

Results flagged for a closer look

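Single pools far from the other pools of their stage and diet group were looked for with Dixon's test at 95% on log2(TPM + 1), in the 78 groups of pools of the 7 copies with full values in which a pool reached 1 TPM. It marked 11, and chance marks about 1 in 20 groups. For Chia LABE_00056099 these were BW0 R9 with 493.3 TPM (others 369.5 to 390.3), BW3 B9 R2 with 307 TPM (others 1109 to 1197), BW4 B10 R2 with 580.0 TPM (others 853 to 1049) and BW5 B9 R2 with 921.5 TPM (others 728 to 756). For Chia LABE_00056104 they were BW0 R3 with 80.5 TPM (others 193 to 269.6), BW3 B9 R2 with 79.8 TPM (others 418 to 564) and BW4 B10 R2 with 295 TPM (others 437 to 508). For Chia LABE_00058258 they were BW3 B9 R2 with 167 TPM (others 349 to 420.1) and BW4 B10 R2 with 185 TPM (others 274 to 316). For Chia LABE_00082067 they were BW2 B5 R1 with 57.6 TPM (others 0 to 1.95) and BW3 B6 R2 with 1.67 TPM (others 0 to 0.216). Pools B9 R2 of BW3 and B10 R2 of BW4 thus account for 6 of the 11.

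The diet difference of Chia LABE_00058258 at BW6 and BW7 exceeded that at BW2 to BW5 by 1.34 on the log2 scale, and was marked by a rule that compares the feeding periods. It includes the BW7 difference known when the family was proposed, so it is given without a test, and it was 1.14 without tank B6.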

How the results depend on the processing

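Of 29 stage step calls on the family, 18 held under every alternative, as did 1 of the 2 tested diet calls, and no call changed direction. Both step counts include calls that are descriptions. They are the steps of the 5 chitinase copies highest at BW5 or BW6, and the last rise of LABE_00082067. Of the 5, LABE_00070761, LABE_00070763, LABE_00084151 and LABE_00092194 entered the test only through BW5 and later stages, and LABE_00082067 entered it only through BW7. The counts below include the BW7 and feeding period values of LABE_00058258, which are descriptions, and show only how many copies were past the threshold. Diet counts over all stages (3) were 1 with stages fitted alone, 6 without the pools with a spaced title, 6 without the pools nearer to another stage, and 1 to 7 when a tank was left out. At BW2 (1) they were 2 with size factors, 2 with pools as replicates, 4 without either set of pools, 2 without BW3 B9 R2 and BW4 B10 R2, 2 with TPM averaged before the log (both chosen after seeing the data), and 1 to 2 without a tank. At BW5 (0) they were 0 to 2 without a tank. At BW6 (1) they were 0 with pseudocount 0.1, 2 with no filter, 0 with the stage alone and 0 to 1 without a tank. At BW7 (1) they were 0 with the stage alone and 0 to 2 without a tank, with 0 without B5 or B6, and 2 without B9, when LABE_00082067 also passed.

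Step calls from BW3 to BW4 (1) were 5 with pseudocount 0.1, 3 with the stages alone, 2 with pools as replicates, and 2 with TPM averaged before the log. Those from BW5 to BW6 (5) were 3 with the stages alone and 3 to 5 without a tank. For those from BW0 to BW2 (4) no count is given without the pools with a spaced title, since only pool R3 then remained at BW0. The feeding period contrast (1) gave 2 with no filter, with size factors, with pools as replicates, without the pools nearer to another stage and without BW3 B9 R2 and BW4 B10 R2, and 0 to 2 without a tank. Of the 21 most similar genes, Spearman correlation named 2.

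With tank as a replicate block (correlation 0.0364) the step from BW3 to BW4 gave 2 calls, LABE_00084151 being added (adjusted p = 0.0463), and the feeding period contrast gave 2, LABE_00070763 being added (adjusted p = 0.044). LABE_00070763 was near silent from BW2 to BW4, so its feeding period value cannot show that its diet difference changed. The block changed no other call. Of 30 pairs of successive stages, 18 correlated better with their own tank than with others. The causes of these changes were not tested. Depth is unknown, so no limit on the low copies can be given from it.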
